A study of Mus musculus with 45 samples.

Results

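REV-ERBα binding deep inside genes was examined in mouse liver. A deep intragenic peak is a REV-ERBα ChIP-seq peak whose summit lay inside the span of a protein-coding gene on chromosomes 1 to 19 and more than 10 kb from both ends of every protein-coding gene. At zeitgeber time 10 (ZT10, hour 10 of the light-dark cycle), 7846 of 27622 peaks on these chromosomes (27929 on all) met the rule (28.4%). They lay in 2795 host genes. The peaks came from livers of mice labelled REV-ERBa3HA/3HA, in which both copies of the REV-ERBα gene carry the tag named 3HA. No AAV was given, and chromatin was captured with anti-HA magnetic beads. The same genotype and beads were used at ZT22. Age and sex are not in the labels. There are 45 samples in 18 groups in the series, of which 4 at ZT10 and 4 at ZT22 are described here. Each set of 4 was pooled by the authors into 1 peak list, so no value has a replicate spread and no test between times was possible. Untagged liver was not analysed here, so dependence of any peak on the tag was not tested.

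REV-ERBα, encoded by Nr1d1, is a heme-binding nuclear receptor of the circadian clock that lacks the activation helix of its family and represses transcription by recruiting the corepressor NCOR1 with the histone deacetylase HDAC3. It binds as a monomer to the hexamer AGGTCA preceded by an A/T-rich flank, the element it shares with the activating ROR receptors, and it can bind a direct repeat of that hexamer spaced by a pair of bases. Its protein is abundant in liver late in the light phase and scarce late in the dark phase. Sites deep inside a gene lie mostly in introns, which can hold enhancers as well as the starts of shorter transcripts. The exons were not used here, so intron and exon were not told apart. Liver is a mixed tissue, so a peak cannot be given to a cell type, and no expression was measured with which to check the labelled tissue against its markers.

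No genome was used here, so the sequence under each summit was not read. Sequence could be read where a deep peak held a transcription start listed by RefSeq (build GRCm38.p6, the coordinates of mm10), as a window of 300 bases from 250 before to 50 after the start. In 102 deep peaks the summit lay within 250 bp of a listed start of the host itself and the peak held the whole window. Over all 31396 listed windows, 16.3% held AGGTCA on either strand, a share per window and not per peak. Of these 102 peaks, 22 had such a window with AGGTCA on either strand (21.6%). The 4 of highest fold among them are shown, followed by the window of highest fold without a match, because these are the deep sites at which letters and summit can be set side by side. All are written 5′ to 3′ on the strand of the gene. Capitals mark AGGTCA or its reverse complement TGACCT and, in Arntl, the longer matches of AANT before AGGTCA and of AANT before AGGTTA, where N is any base. The last of these was added to the search after the Arntl window had been read. The Arntl window is chr7:113207261-113207560 on the plus strand, that of Pcca is chr14:122534078-122534377 on the plus strand, and that of Cdc14b is chr13:64248489-64248788 on the minus strand. The Rara window is chr11:98964622-98964921 on the plus strand, and the Ablim1 window, without a match, is chr19:57197582-57197881 on the minus strand.
Arntl: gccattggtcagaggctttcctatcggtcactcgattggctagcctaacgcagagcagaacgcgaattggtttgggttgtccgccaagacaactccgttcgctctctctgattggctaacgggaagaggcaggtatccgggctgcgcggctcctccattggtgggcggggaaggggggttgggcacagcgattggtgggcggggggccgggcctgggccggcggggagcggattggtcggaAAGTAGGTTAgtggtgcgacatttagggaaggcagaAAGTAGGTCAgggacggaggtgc
Pcca: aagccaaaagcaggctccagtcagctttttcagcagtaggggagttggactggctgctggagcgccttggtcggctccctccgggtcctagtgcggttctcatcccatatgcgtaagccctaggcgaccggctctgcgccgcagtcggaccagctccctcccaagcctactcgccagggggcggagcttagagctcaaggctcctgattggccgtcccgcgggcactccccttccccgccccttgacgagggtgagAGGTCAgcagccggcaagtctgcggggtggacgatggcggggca
Cdc14b: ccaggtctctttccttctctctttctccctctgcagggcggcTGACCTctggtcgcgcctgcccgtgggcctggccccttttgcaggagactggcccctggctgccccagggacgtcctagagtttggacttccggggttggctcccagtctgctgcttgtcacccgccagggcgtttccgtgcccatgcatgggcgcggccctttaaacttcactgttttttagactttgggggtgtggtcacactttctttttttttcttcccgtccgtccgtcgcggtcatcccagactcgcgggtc
Rara: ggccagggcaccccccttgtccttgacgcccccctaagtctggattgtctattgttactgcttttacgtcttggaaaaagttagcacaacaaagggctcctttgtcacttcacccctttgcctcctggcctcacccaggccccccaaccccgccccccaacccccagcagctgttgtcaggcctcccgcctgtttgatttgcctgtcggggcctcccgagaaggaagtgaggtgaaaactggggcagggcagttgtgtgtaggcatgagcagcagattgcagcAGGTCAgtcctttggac
Ablim1: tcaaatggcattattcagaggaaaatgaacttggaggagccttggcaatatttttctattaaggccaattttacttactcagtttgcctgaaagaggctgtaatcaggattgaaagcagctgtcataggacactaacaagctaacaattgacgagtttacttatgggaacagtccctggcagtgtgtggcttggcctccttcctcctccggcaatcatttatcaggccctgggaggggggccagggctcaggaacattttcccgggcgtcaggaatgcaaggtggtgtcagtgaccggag
In Arntl, AAGTAGGTCA filled bases 278 to 287 of the window and ended 16 bp from the summit of the peak, and AAGTAGGTTA filled bases 242 to 251 and lay 52 bp from it. The AGGTCA of Pcca lay 60 bp from its summit, that of Rara 100 bp and that of Cdc14b, on the other strand, 158 bp. The Ablim1 summit lay 22 bp from the listed start, with none of these letters in the window.

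The strongest deep site in the genome was in Arntl, which encodes BMAL1, the activator that REV-ERBα is best known for repressing. That peak lay on chromosome 7 from 113204746 to 113211949, was 7204 bp wide, and had a fold of 89.8 over its local background (95% counting interval 86.2 to 93.6, from 2279 fragments at the summit). Fold here is the authors' value for each peak, the ratio of fragment pileup at the summit to the local background, and the counts behind it were worked out from the deposited columns. The Arntl summit was 29092 bp from the nearer end of the annotated span and 52 bp from a start of Arntl that RefSeq lists inside it. By position in the span it was therefore a deep peak, and by the listed start it was a promoter peak.

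The next peaks in order of fold lay in genes of varied function. Gfod1, a predicted oxidoreductase gene, held a peak of 71.0, and Arid3a, which encodes an AT-rich DNA-binding factor, held one of 65.9. Adcy1, an adenylyl cyclase gene, had a peak of 56.2, and Palb2, whose product partners BRCA2 in DNA repair, had one of 55.1. Ppard, the gene of the nuclear receptor PPARδ, had a peak of 49.3 that spanned 14804 bp, and Cry1, which encodes a repressor of the clock, had a peak of 49.1 (46.2 to 52.1). The intervals of Ppard and Cry1 overlap each other widely, while that of Arntl, from 86.2, lies above that of Gfod1, which reaches 74.7.

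The peaks ranked 8 to 20 had folds from 48.7 in Cda, a cytidine deaminase gene, to 36.9 in Lipc, the hepatic lipase gene. Between them stood Fars2 at 47.8 (a mitochondrial tRNA synthetase), Sh3pxd2a at 47.6 (a scaffold of invasive adhesions), Vps13d at 44.5 (a lipid transfer protein), Marchf11 at 43.7 (a ubiquitin ligase) and Prlr at 42.2 (the prolactin receptor). Nav2 at 42.0 (a cytoskeletal protein), Slc13a2 at 41.7 (a citrate and dicarboxylate transporter), Acacb at 41.6 (the acetyl-CoA carboxylase of the mitochondrial surface), Ccnjl at 41.2 (a cyclin-like protein), Mlxipl at 38.0 (the glucose-sensing factor ChREBP) and Gng7 at 37.3 (a G protein subunit) completed the 20. Of these 20 peaks, 6 were the sole deep peak of their host, and 8 were in hosts with 5 or more. Among all 2795 host genes, 1230 held 1 deep peak and 482 held 5 or more, which counts genes and not peaks. RefSeq lists a start for the host of 17 of the 20, and the Arntl peak was the 1 with its summit within 1 kb of such a start.

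Peaks of high fold did not all have the same shape. The Acacb peak was 211 bp wide although its summit held 2253 fragments, and its local background was 2.85 times the lowest in the list. The other 5 deep sites of Acacb had folds of 4.37 to 10.3 and widths of 752 to 4279 bp. Among deep peaks of fold 20 or more, 5 were narrower than 300 bp: those in Acacb, Ybx3 (36.7), Pik3cd (24.4), Plxdc2 (23.4) and Dpp9 (20.5). What gave these narrow peaks their shape was not tested.

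At the other end stood broad domains. The widest peak with a deep summit spanned 28442 bp at H6pd, the gene of the hexose-6-phosphate dehydrogenase of the endoplasmic reticulum, with a fold of 21.1. It was followed by Slc39a14, a zinc and iron transporter gene (25721 bp, fold 28.4), Scarb1, the HDL receptor gene (24696 bp, fold 23.7), Rbm47, an RNA-binding protein gene (23777 bp, fold 17.6), and Nfic, a nuclear factor I gene (21207 bp, fold 16.8). The other 5 of the 10 widest lay in Mgrn1 (20134 bp), Zmiz1 (19720 bp), Lifr (19265 bp), Mlxipl (18161 bp) and Gse1 (18035 bp). Of these 10, those in Rbm47, Zmiz1, Lifr and Gse1 lay wholly in the deep interior, and the other 6 reached to within 10 kb of a gene end or past it. At H6pd 9548 bp of the peak was in the deep interior, and at Mgrn1 2520 bp was. The Mlxipl summit lay 1507 bp from a listed start of the gene. Over all deep peaks width and fold went together (Spearman correlation 0.77 across 7846 peaks of 1 pooled library set, which are not replicates), but at the extremes they parted, since Mlxipl was the 1 peak that the 10 widest shared with the 20 strongest.

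Of 9424 protein-coding genes long enough to have any sequence more than 10 kb from every gene end, 29.7% held a deep peak, and 3.1% held one of fold 20 or more. Core clock genes held one at 8 of the 12 that had such an interior, 4 of them with a fold of 20 or more. The list had 42.3 deep peaks per Mb of interior, where all 9424 genes together had 11.2. All gene lists here were chosen with earlier results of these data known, so their counts are descriptions. The lists were not matched for interior length. Over all genes density fell with that length, from 20.4 peaks per Mb for interiors up to 10 kb to 5.57 above 300 kb.

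Within the clock, Arntl held 6 deep sites, with folds in order along the gene of 5.52, 89.8, 6.90, 16.1, 15.4 and 21.6. The 3 sites downstream of the main peak at folds above 15 lay 35371, 43587 and 53364 bp from the nearest listed start of the gene. Cry1 held 3, with folds of 6.86, 4.19 and 49.1, and the last lay 23165 bp from the listed start and from the end of the span. Cry1 thus had 1 deep site above a fold of 15, and Arntl had 4.

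Rora, which encodes the activator RORα that competes with REV-ERBα for the same element, held 29 deep sites, the highest number of any gene. Their folds ran from 4.42 to 35.9 with a median of 7.96, and the strongest lay on chromosome 9 from 69329519 to 69341746, which puts its summit 48793 bp inside the span. Hlf, a PAR bZIP activator gene of clock output, held 3 sites at 20.7, 12.3 and 9.75. Npas2, whose product can replace CLOCK as the partner of BMAL1, held 7, of which the strongest had a fold of 14.9. Per2, a clock repressor gene, held 1 of 14.4 that spanned 12067 bp, Cry2, a second cryptochrome gene, 1 of 6.58, and Clock 1 of 4.88. Per3, Nr1d2 (REV-ERBβ) and Tef were among those that had an interior and no deep peak in the list.

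**Figure D1:**
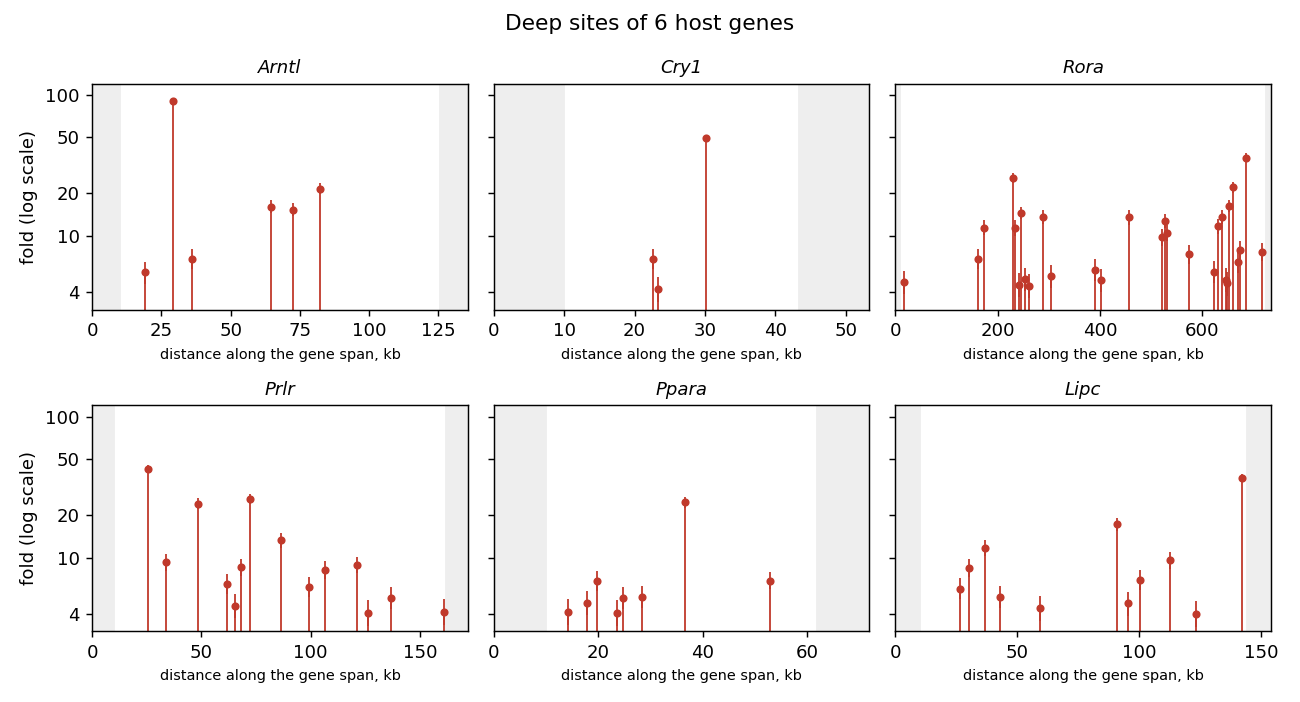
Deep intragenic sites along 6 host genes. Each point is 1 ZT10 peak, placed by the distance of its summit from the lower-coordinate end of the gene span (x axis, kb) and by its fold over local background (y axis, log scale), with 95% counting intervals as vertical bars and the 10 kb at each gene end shaded. Arntl, Cry1 and Ppara each have a site well above their others, at 89.8, 49.1 and 24.7, while Rora has 29 sites spread along the span.

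Genes that act on the clock proteins and genes of the corepressors were also hosts. Clock kinase and ubiquitin pathway genes held a deep peak at 5 of 9, with 11.6 peaks per Mb, a density next to that of all genes. The strongest in that list were Usp2, a deubiquitinase gene (14.6, with its summit 849 bp from a listed start), Fbxw11, a ubiquitin ligase gene (7.91), and Gsk3b, a kinase gene (7.45). Corepressor genes held one at 5 of 9, with 19.7 per Mb. Rcor1, whose product scaffolds a deacetylase and demethylase complex, had its strongest at 14.8, and Hdac4, a histone deacetylase gene, at 14.1. Ncor1, named here outside the rule because its product is the main corepressor of REV-ERBα, held 4 sites with a highest fold of 5.80.

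Transcription factors of the hepatocyte were hosts at 19 of 22 genes, with a median of 3.5 deep peaks per gene and 52.6 per Mb. Nfia, a nuclear factor I gene, held 24 sites with a highest fold of 26.2. Stat5a, which encodes a transducer of growth hormone signals, held 1 of 23.9, and Onecut2, a liver-enriched homeobox gene, held 4 with a highest fold of 23.0. In this list 7 genes had a deep peak of fold 20 or more. Onecut1 and Bcl6 were among those that had an interior and no deep peak.

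Nuclear receptors and their coactivators were hosts at 20 of 23 genes, with a median of 4 sites and 25.1 per Mb. Ppard led at 49.3 and also held sites of 5.34 and 21.6. Nrip1, the gene of the coregulator RIP140, had its strongest site at 27.1, and the genes of ERRγ (Esrrg, 9 sites) and PGC-1β (Ppargc1b, 7 sites) both had theirs at 25.1. Ppara, the receptor of the fasting response, held 8 sites in 51.9 kb of interior, 154 per Mb, with 1 of 24.7 and the other 7 at 4.05 to 6.85. Some of these Ppara summits lay within 5 kb of each other and were counted apart.

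Genes of hormone and growth factor signalling were hosts at 20 of 27, with 32.9 sites per Mb. Prlr held 14 sites with folds of 4.05 to 42.2, 3 of them above 20, and the strongest lay 20994 bp from the nearest listed start of Prlr. Prkce, a protein kinase C gene, held 23 sites with a highest fold of 30.5, and Grb10, an adaptor that restrains insulin receptor signals, held 3 with a highest fold of 22.3.

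Genes of lipid synthesis and of lipoproteins had the densest deep binding of the lists. Fatty acid and triglyceride synthesis genes were hosts at 18 of 21, with 58.2 sites per Mb. Acacb led with its narrow peak, followed by Agpat3, an acyltransferase gene (29.2), and Elovl5, an elongase gene (24.95). Cholesterol, bile acid and lipoprotein genes were hosts at 13 of 20, with 54.2 per Mb. Lipc held 11 sites, 9 of them under a fold of 12, with others at 17.2 and 36.9. Srebf2, the gene of the master regulator of cholesterol synthesis, had its strongest at 32.8 and Scarb1 at 23.7. Fatty acid oxidation genes were hosts at 7 of 16 with 50.01 per Mb. Cpt1a, which encodes the enzyme that admits fatty acids to mitochondria, had a site of 21.7, and the next, in Hadhb and Acsm1, had 9.34 and 6.63.

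Genes of glucose and glycogen metabolism were hosts at 10 of 15, with 30.8 sites per Mb. They were led by Mlxipl at 38.0 and Pfkfb3, which makes the activator of phosphofructokinase, at 25.4. Drug and steroid metabolism genes were hosts at 12 of 16, with 49.8 per Mb, led by Aox3, an aldehyde oxidase gene (27.4), Aldh1a1, a retinal dehydrogenase gene (24.95), and Dpys, a pyrimidine breakdown gene (23.4). Amino acid and urea genes were hosts at 8 of 15 with 15.9 per Mb, led by Gldc, of the glycine cleavage system (24.6), Aass, of lysine breakdown (20.7), and Pcca, of propionate breakdown (18.9).

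Plasma protein genes, which hepatocytes express at high levels, were hosts at 2 of 13, or 11.9 sites per Mb. The pair were Cp, the ceruloplasmin gene (18.4), and F5, a coagulation factor gene (6.67).

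Markers of the other cell types of the liver had densities below the 11.2 per Mb of all genes, in lists too short to read much from. Kupffer cell markers had none at 4 genes with 134.5 kb of interior and stellate cell markers none at 5 with 604.7 kb. Liver endothelial markers were hosts at 2 of 10 (10.3 per Mb), Stab2 with 4 sites up to 9.79 and Pecam1 with 3 up to 8.83. Cholangiocyte markers were hosts at 2 of 3 (6.95 per Mb), Pkhd1 with a highest fold of 18.3 and Cdh1 with 4.79. Lymphocyte markers were hosts at 2 of 8 (8.82 per Mb). Skap1 had a site of 5.84, but Bach2, a repressor gene of B and T cells, had 9 sites with folds of 5.98 to 33.5, 3 of them above 20. Whether Bach2 is expressed in these livers was not measured.

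Neuronal adhesion and synapse genes, taken as long genes with little known role in liver, were hosts at 20 of 30, a share near that of clock genes. Their density was 1.60 deep peaks per Mb, the lowest of the lists with any, where all genes with interiors above 300 kb together had 5.57. Grm7, a glutamate receptor gene, had a site of 30.8, Rbfox1, a splicing factor gene, one of 22.1, and Dab1, of reelin signalling, one of 20.2. A share of host genes is therefore read here beside the density.

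**Figure D2:**
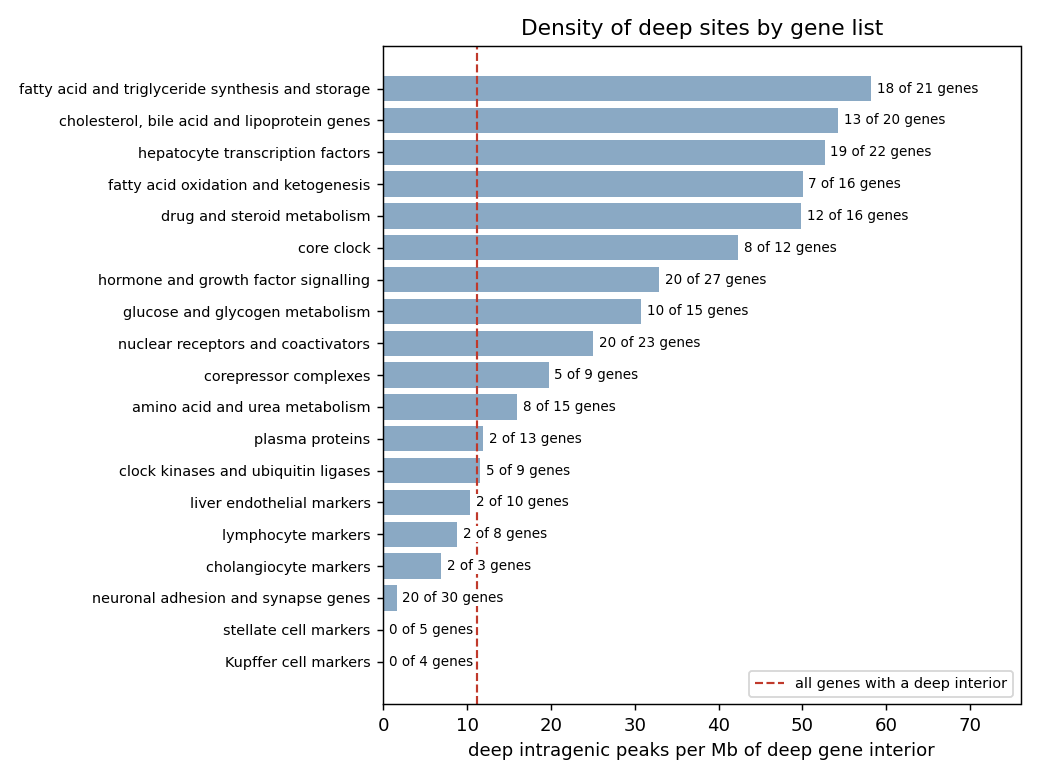
Deep intragenic ZT10 peaks per Mb of deep gene interior (x axis) in 19 gene lists (bars), with host genes of genes that have an interior beside each bar and the dashed line at the value of all such genes, 11.2. Lipid, hepatocyte factor and drug metabolism lists are near 50 to 58 per Mb, and neuronal genes are at 1.60 although 20 of 30 hold a peak. The lists were not matched for interior length, with which density falls.

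Sites per gene ranged widely. Of the 2795 hosts, 1230 held 1 deep peak, 1565 (56.0%) held 2 or more, and 482 held 5 or more. The 106 hosts with 10 or more (3.79% of hosts) held 1430 deep peaks, which is 18.2% of them. After Rora came Arhgap26, a GTPase-activating protein gene, with 25, and Zbtb20, a zinc finger repressor gene with roles in liver and growth, also with 25 but none above a fold of 16.4. Nfia held 24, Prkce and Pde4d, a cAMP phosphodiesterase gene, 23 each, and Itpr1, the gene of an IP3-gated calcium channel, 22. Vps13d, Foxn3 (a forkhead repressor), Pard3 (a cell polarity protein) and Stard13 (a GTPase-activating protein) held 19 each.

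Per Mb of interior the order was different. Among genes with 8 or more sites, Slc38a4, a neutral amino acid transporter gene of the liver, was densest, with 8 sites in 41.1 kb of interior, or 194 per Mb. Their folds ran from 4.10 to 18.4. Ppara and Cdk8, a kinase of the Mediator complex, followed at 154 each, and Vgll4, a TEAD cofactor gene, had 13 sites at 145 per Mb. Mtss1 held 17 sites in 122.7 kb, 139 per Mb. The genes in this paragraph were chosen by their density after the values were seen. Each called peak counts as a site here, and summits within 5 kb were not merged. In Slc38a4, sites 1 to 6 lay 10.0, 14.7, 17.1, 20.6, 25.2 and 29.3 kb along the span. In Ppara they lay at 14.3, 17.9, 19.7, 23.6, 24.8 and 28.3 kb. In both genes each of these summits was within 5 kb of the next, so these densities depend on how peaks were split.

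The longest interiors without any deep peak were those of Lrp1b, Nrxn3, Csmd1, Ctnna3 and Dpp10, which ran from 1494 kb in Dpp10 upward. Interior length and number of sites went together only in part. The share of genes with a deep peak was 8.36% for interiors up to 10 kb, 22.2% from 10 to 30 kb, 38.7% from 30 to 100 kb, 51.4% from 100 to 300 kb and 61.0% above 300 kb. Density ran the other way, from 20.4 peaks per Mb in the shortest class to 5.57 in the longest. Among hosts, the number of sites went with interior length (Spearman correlation 0.47 over 2795 genes) and with the fold of the strongest site (0.58). The median strongest fold was 6.17 in hosts with 1 site and 15.7 in hosts with 5 or more, where it is the highest of more values.

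**Figure D3:**
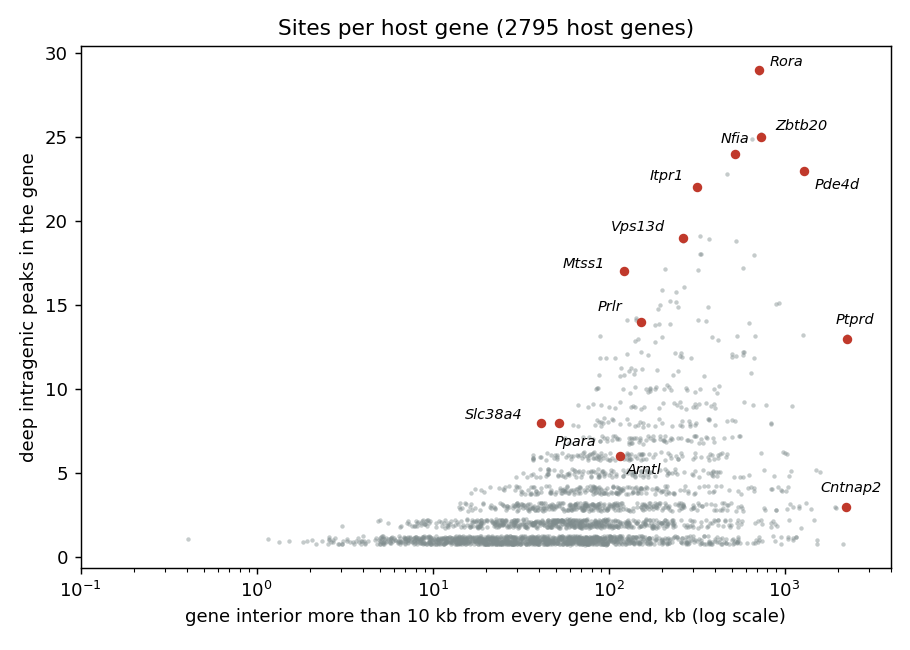
Number of deep intragenic ZT10 peaks per host gene (y axis) against the length of gene interior more than 10 kb from every gene end (x axis, kb, log scale). Each grey point is 1 of 2795 host genes, jittered vertically, and red points are named genes at their exact values. Rora is highest at 29, Slc38a4 and Ppara hold 8 in short interiors, and Ptprd holds 13 in an interior much longer than that of Rora.

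Neighbouring deep summits in the same host were a median of 10228 bp apart (quartiles 5361 and 22736 bp), and 22.3% of the 5113 gaps were under 5 kb. When summits within 5 kb were counted as 1 site, 49.98% of hosts still held 2 or more. The summit was a median of 32601 bp from the nearest gene end, and at most 1021621 bp, in Ptprd. A single gene span held 7810 of the peaks, and 36 lay in more than 1.

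The table of starts gives the strand of a gene, and 6156 peaks lay in a single host with a known strand. Of these, 54.1% were nearer to the 5′ end of the interior than to the 3′ end. With the interior cut into 10 equal parts, the share was 12.3% in the part next to the 5′ side and 7.91% in that next to the 3′ side, where equal shares would be 10%. Of the 262 peaks with a fold of 20 or more, 52.7% were nearer to the 5′ end. Several peaks can share a host and are not independent, so no interval is given and a lean from 50% was not tested.

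**Figure D4:**
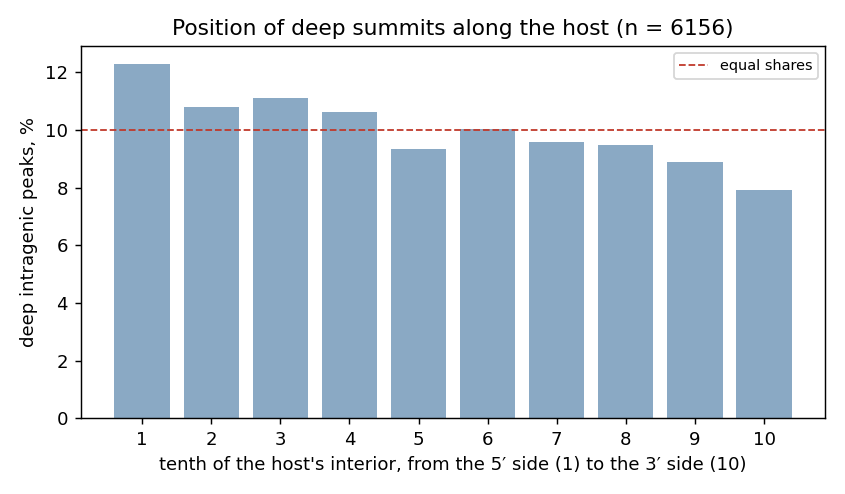
Share of deep intragenic ZT10 summits in each of 10 equal parts of the host's interior, from the 5′ side (1) to the 3′ side (10), for 6156 peaks in a single host of known strand. The dashed line is at 10%. The shares run from 12.3% to 7.91%.

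Few deep peaks lay at a listed start. RefSeq lists at least 1 start for 2216 of the 2795 hosts, which hold 6183 deep peaks. Of these, 108 (1.75%) had their summit within 250 bp of a listed start of the host, 237 (3.83%) within 1 kb and 735 (11.9%) within 10 kb. Starts of any gene, the host or another, lay within 1 kb of 332 of 7538 deep peaks (4.40%), among them the strongest peak of Prlr, 288 bp from a start listed for another gene. The table is not complete, so these are shares of listed starts only. The median fold was 6.90 both within 1 kb and beyond 10 kb, while the median width was 2091 bp within 1 kb and 1649 bp beyond 10 kb. A fold of 20 or more was found at 5 of 237 peaks within 1 kb (2.11%) and at 227 of 5448 beyond 10 kb (4.17%). These 5 were the peaks in Arntl, Cyp2c39 (a P450 gene, 22.7), Pparg (the receptor of fat cell formation, 22.6), Sec16b (of endoplasmic reticulum export, 20.8) and Upp2 (a uridine phosphorylase gene, 20.04). The Rara peak shown by its sequence, in the gene of a retinoic acid receptor, had a fold of 16.6 and was 8384 bp wide, Pcca had 18.9, Cdc14b, a phosphatase gene, 16.8, and Ablim1, an actin-binding protein gene, 19.9.

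The hexamer AGGTCA, on either strand, was in 19.3% of the 466 listed windows that lay wholly inside a deep peak. It was in 13.8% of 8136 windows inside other ZT10 peaks and in 17.1% of 22794 windows not wholly inside any ZT10 peak. Over all 31396 windows in the table it was in 16.3%. AGGTCA with AANT before it, each match of which also counts as AGGTCA, was in 3 of the 466 windows (0.644%), in 0.234% of windows in other peaks and in 0.226% of all. AGGTCA repeated after NN was in 0 of the 466 and in 3 of all windows. AGGTTA with AANT before it was in 3 of the 466 windows (0.644%), of which 2 are overlapping windows of Arntl, where it was seen before it was searched for, and the other is of Acaca. Those letters were in 0.0615% of windows in other peaks, 0.162% of windows not wholly inside any ZT10 peak and 0.143% of all. Windows of neighbouring starts overlap, a gene can have several, and a match by letters is not a bound site.

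Deep peaks also lay over microRNA genes. Of the whole sequence of deep gene interiors, deep peaks covered 2.49%. They held 13 hairpins listed by RefSeq, and 12 of these were among the 222 hairpins in such interiors (5.41%). The strongest of these peaks had a fold of 22.5 (20.6 to 24.6) and held Mir107 inside Pank1, the pantothenate kinase gene with which this microRNA is known to be linked in lipid metabolism. Its summit lay 834 bp from the hairpin, which is at chr19:34820687-34820773 on the minus strand. The mature strand with its seed, bases 2 to 8, in capitals is shown because miR-107 is the best known of the 13.
mmu-miR-107-3p: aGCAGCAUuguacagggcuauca
The hairpin of Mir190a in Tln2, the talin 2 gene, lay in a deep peak of fold 11.2. The other 11 peaks over hairpins had folds from 7.41 to 19.2. Expression of these microRNAs was not measured.

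In strength and width deep peaks stood close to the other ZT10 peaks. Their median fold was 6.95 (quartiles 5.06 and 10.7) and that of the other 19776 peaks 6.80, a difference of 0.03 on the log2 scale. The median width was 1696.5 bp (quartiles 1056 and 2768.5) against 1683 bp. A fold of 20 or more was found at 345 deep peaks (4.40%), where 4.76% of all ZT10 peaks reach it. A fold of 30 or more was found at 57 deep peaks (0.726%) and at 185 of the other 19776 (0.935%).

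The other peaks were not alike among themselves. Peaks inside a gene but within 10 kb of an end had a median fold of 6.40, with 2.81% at 20 or more. Those outside genes within 10 kb of an end had 6.81 and 5.06%, and those outside genes and farther away had 7.54 and 7.66%. The median of deep peaks thus lay above that of peaks near the ends of genes, counted over all genes and not over the hosts alone, and below that of distal peaks between genes. Among the 20 ZT10 peaks of highest fold, 5 were deep, among the top 100 there were 22 and among the top 500 there were 114 (22.8%). Per Mb, the deep interiors held 11.2 peaks and the sequence within 10 kb of a gene end 26.0.

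**Figure D5:**
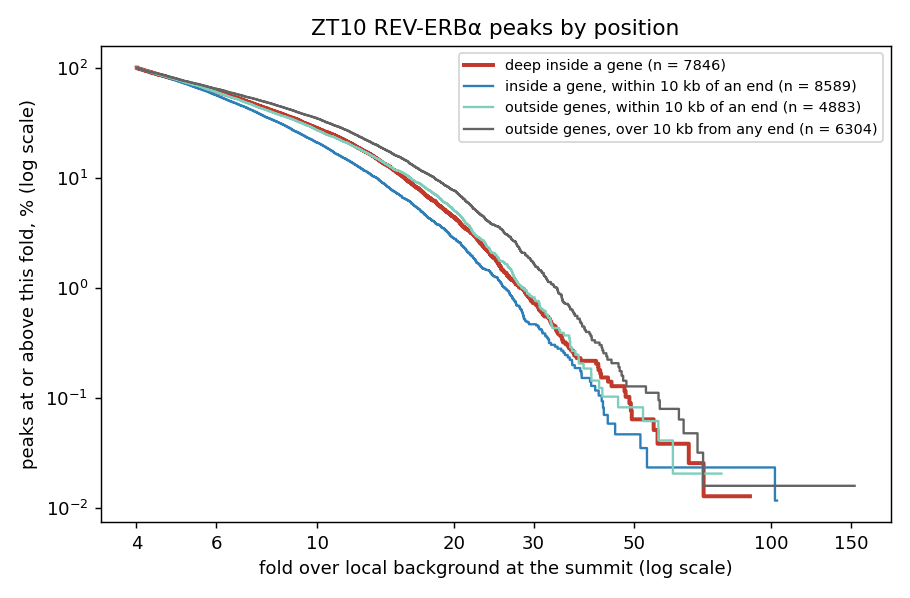
Percentage of ZT10 peaks at or above a given fold (y axis, log scale) against the fold over local background (x axis, log scale), for the 4 position classes. The curve of the 7846 deep peaks lies above that of peaks within 10 kb of an end inside genes and below that of peaks over 10 kb from genes over most of the range, with medians of 6.95, 6.40 and 7.54.

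The rule has a threshold at 10 kb. Just inside it were peaks in Slc25a15 (10001 bp from the nearest end, fold 5.39) and Tmpo (10001 bp, fold 4.93), and just outside was a peak in Depdc7 (9998 bp, fold 7.64). Since the rule uses the summit, 355 deep peaks reached with an edge to within 10 kb of a gene end.

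At ZT22, hour 22 of the cycle, the list held 36 peaks, and 0.0869% of the ZT10 peaks on these chromosomes had a ZT22 peak over them (at least 1 bp). Of the 7846 deep peaks 2 did (0.0255%), and of the other 19776 peaks 22 did (0.111%). The pools had about equal depth (ZT22 0.97 of ZT10, if the same control served both). These 2 sites are 5.56% of the ZT22 list.

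In Ppard the ZT10 summit held 1070 fragments and a fold of 49.3, and the ZT22 peak held 130 fragments (95% counting interval 108.6 to 154.4) and a fold of 6.35, with the summits 52 bp apart. The ZT22 summit of Ppard thus held far fewer fragments, a difference without a replicate check. Among the 100 strongest deep peaks, Ppard was the 1 with a ZT22 peak, and Arntl, Gfod1, Arid3a, Adcy1 and Palb2 had none in the ZT22 list.

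By their own summits, 5 ZT22 peaks were deep. Besides Ppard these included peaks in Dop1b (fold 9.43, 212 bp wide) and Piezo2 (6.09, 200 bp wide, local background 8.99 times the lowest), where the ZT10 list held no peak, and in Loxl4, a lysyl oxidase gene (35.3). The ZT10 peak of Loxl4 had its summit 9735 bp from a gene end and so was not deep, while the ZT22 summit, 594 bp away, was at 10198 bp.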

How the data were processed

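ChIP-seq of mouse liver was used from 4 samples at ZT10 and 4 at ZT22, and the other 37 samples were not analysed here. Per the labels' protocols, liver nuclei were fixed with formaldehyde and then EGS, with adapters then added by Tn5 tagmentation. Per the submitters' processing notes the tools were MACS2 2.1.2, BWA 0.7.17, SAMtools 1.9, deepTools 3.3.0, cutadapt 2.3, bcl2fastq 2.17 and Picard 2.18.12 and the build was mm10, without a role for each. The authors deposited 1 peak list per time from pooled samples, in which the fold is the ratio of summit to local background. The deposited lists also hold a −log10 p and −log10 q per peak, and a deposited score that was not used. Which library was the control, and whether samples came from separate animals, was not given in the sources used here.

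The lowest fold in the ZT10 list was 4.01, so weaker sites are not in it. Gene spans were those of RefSeq for GRCm38.p6 (20661 protein-coding genes on chromosomes 1 to 19), and starts and microRNAs from RefSeq tables of that build, the former without chromosome 18. Pileup and background were solved from the fold and −log10 p with a pseudocount of 1. At 99.2% of ZT10 peaks this gave whole fragments to within 0.1, and deep summits held 83 to 2279 fragments (median 151). Counting intervals are exact Poisson at 95% and cover counting error only, since PCR copies are not independent molecules. Intervals of shares, exact Clopper-Pearson, served only to sort values under alternatives. They take peaks or genes as independent, which peaks that share a host are not. Peaks of 1 library pool are not replicates, so no test was run. Calculations used Python 3.11.15 with pandas 2.3.3, NumPy 2.4.6 and SciPy 1.17.1, and classification and counts were tested on simulated data. The peaks and the gene lists were chosen with earlier results of these data known. Named genes are the hosts of the 20 strongest, the 10 widest and the ZT22-overlapped deep peaks, the 10 genes with most sites (11 with ties), core clock hosts, and the 3 strongest hosts of each other list. Not every gene the rule takes is named here. Genes named for other reasons were chosen after their values were seen. The planned share of motifs under summits was not run, for want of a genome here, and windows at listed starts were read in its place. Alternatives changed the distance, the −log10 q limit, the genes whose ends count, the part of a peak that must lie deep, the chromosomes and the overlap.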

Additional observations from a re-analysis of the deposited data

How the results depend on the processing

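The main limits are that each time has 1 pooled list, that no peak under a fold of about 4 is in it, and that sites inside a gene may sit at starts not listed. No paired analysis was possible because each deposited list merges its 4 samples, which also prevents leaving 1 out. The number of deep peaks ran from 5563 to 9729 over all alternatives, within 1.5 times of 7846.

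With a distance of 5 kb in place of 10 kb, the share of deep peaks was 35.2%, of genes with an interior that hold one 28.1%, of hosts with 2 or more 52.4%, the density 11.9 per Mb, and 6 deep peaks had a ZT22 peak. With 20 kb these were 20.1%, 32.9%, 58.4% and 10.02 per Mb, with 1840 host genes. With −log10 q limited to 10 or more, 25.3% of genes held one, 53.6% of hosts 2 or more, the density was 8.50 per Mb, the median fold 8.37 and the median width 2068 bp. With the ends of all annotated genes the share was 22.6%, that of genes 27.7%, of hosts with 2 or more 53.1%, the density 10.4 per Mb, the median width 1652 bp, the log2 difference from other peaks 0.0097, and 1 deep peak had a ZT22 peak. With the whole peak required to lie deep, the share was 27.1%, the width 1649 bp and the log2 difference 0.0082. Counting summits within 5 kb as 1 left 49.98% of hosts with 2 or more, adding X gave 10.8 per Mb, and requiring 50% of each peak to be covered left 1 deep peak with a ZT22 peak. The distance and the genes whose ends count change both the peaks and the sequence counted, while the −log10 q limit changes the peaks alone. Of 67 values under alternatives, 39 stayed within 1.5 times, for counts, or within an interval, for shares, density, medians and the log2 difference. Those intervals take peaks or genes as independent. The 39 thus joins unlike limits and does not measure replicate spread. Leaving out peaks near listed starts, of high background or under 300 bp, chosen after seeing the data, moved none of the values it was tried on.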
